A study of Mus musculus with 2 samples.

Results

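The 7 genes Egr1, Egr2, Egr3, Egr4, Nr4a1, Nr4a2 and Nr4a3 were taken by symbol from the 41605 genes of 2 single-cell libraries of the mouse hippocampus, and all 7 were found once in each. Both libraries came from wild-type C57BL/6 mice, adult males 10 weeks of age, and each was a pool of cells from 3 mice, so animals within a library cannot be separated. The study compared 2 ways of taking the tissue apart, enzyme digestion (30 min at 37 °C) and mechanical dissociation kept at 4 °C, to see how each shapes the RNA read from brain cells. No label ties a library to either way of dissociation, so the libraries are called library 1 and library 2 and stand for no method. The title of library 2 gives it sample number 2 while its files carry number 4, which no label explains, so which of the study's samples it is remains in doubt. With 2 libraries and no replicate there is no test between them. All intervals below are 95% intervals that cover counting error only, not differences between cells, pools of mice or preparations.

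The Egr genes encode zinc-finger transcription factors that bind GC-rich sites, and the Nr4a genes encode orphan nuclear receptors that bind DNA without a classical ligand. Both families are immediate early genes: their promoters are switched on within minutes by growth factors, calcium entry, cAMP or stress, through factors that are already in the cell, such as SRF with its ETS partners and CREB. In the hippocampus they are best known as genes that follow synaptic activity and take part in memory, while in macrophages and endothelium several of them answer to inflammatory and growth factor signals.

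The files name the genes as Egr1 (ENSMUSG00000038418), Egr2 (ENSMUSG00000037868), Egr3 (ENSMUSG00000033730), Egr4 (ENSMUSG00000071341), Nr4a1 (ENSMUSG00000023034), Nr4a2 (ENSMUSG00000026826) and Nr4a3 (ENSMUSG00000028341). No other gene of GENCODE M21 overlaps any of them on either strand, so their UMIs are not shared with a neighbour.

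Library 1 held 12306 barcodes and library 2 held 6448. After limits on depth, gene number and mitochondrial RNA and the removal of doublets, 5989 cells of library 1 (median 1695 UMIs, unique molecular identifiers that each count 1 captured RNA) and 2075 of library 2 (median 6433) remained. The libraries also stood apart before the limits, with a median mitochondrial share of 1.76% against 13.3% per barcode, and 19 barcodes occurred in both. Cells were assigned to classes by marker genes, none of which is among the 7, and the names end in "-like" because they rest on RNA alone. Library 1 gave 4715 neuron-like, 684 microglia-like, 207 astrocyte-like and 88 oligodendrocyte-like cells. Library 2 gave 1512 microglia-like, 172 endothelial-like and 77 pericyte or smooth muscle-like cells. In every one of these classes at least 13 markers of its own list were raised over the other cells of its library, and 15 or more in neuron-like, microglia-like and endothelial-like cells. Library 2 held 31 neuron-like cells and library 1 held 5 endothelial-like cells, so for those classes cell type and library cannot be told apart. Microglia-like cells were the only class with at least 50 cells in both. Highest levels and orders of classes below are among the classes with at least 50 cells.

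For 5 of the 7 genes RefSeq gives promoter windows (build GRCm38.p6), and the 250 bases before the transcription start are shown for 4 genes that stand for the 3 patterns below: Egr4 and Nr4a2 with their highest level in neuron-like cells, Egr2 in microglia-like cells and Nr4a1 in endothelial-like cells. Capitals mark the core of the cAMP response element (TGACG, or CGTCA on the other strand), which CREB binds, and the CArG box, which SRF binds. RefSeq gives 5 windows for Egr2, of which the one shown is 1. The Egr4 window lies at chr6:85513590-85513839 (minus strand), that of Nr4a2 at chr2:57124004-57124253 (minus strand), that of Egr2 at chr10:67537619-67537868 (plus strand) and that of Nr4a1 at chr15:101266596-101266845 (plus strand). Each window borders an annotated transcript start of its gene in GENCODE M21 and overlaps no exon of the gene, although 2 longer Egr2 transcripts and 1 longer Nr4a1 transcript span it.
Egr4: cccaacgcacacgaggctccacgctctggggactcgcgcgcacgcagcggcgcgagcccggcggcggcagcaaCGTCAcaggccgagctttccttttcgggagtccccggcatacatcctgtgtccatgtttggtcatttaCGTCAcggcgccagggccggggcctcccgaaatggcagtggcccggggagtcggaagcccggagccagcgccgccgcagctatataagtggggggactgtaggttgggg
Nr4a2: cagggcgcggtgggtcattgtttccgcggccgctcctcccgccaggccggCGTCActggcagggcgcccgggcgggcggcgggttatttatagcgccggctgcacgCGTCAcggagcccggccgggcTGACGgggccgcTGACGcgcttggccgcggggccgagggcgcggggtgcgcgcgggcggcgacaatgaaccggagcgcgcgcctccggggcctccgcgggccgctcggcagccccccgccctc
Egr2: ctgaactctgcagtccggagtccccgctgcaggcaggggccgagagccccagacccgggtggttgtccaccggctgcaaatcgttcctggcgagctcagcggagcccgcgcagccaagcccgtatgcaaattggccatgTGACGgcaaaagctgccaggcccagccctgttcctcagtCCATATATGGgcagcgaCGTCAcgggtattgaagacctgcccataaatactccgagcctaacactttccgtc
Nr4a1: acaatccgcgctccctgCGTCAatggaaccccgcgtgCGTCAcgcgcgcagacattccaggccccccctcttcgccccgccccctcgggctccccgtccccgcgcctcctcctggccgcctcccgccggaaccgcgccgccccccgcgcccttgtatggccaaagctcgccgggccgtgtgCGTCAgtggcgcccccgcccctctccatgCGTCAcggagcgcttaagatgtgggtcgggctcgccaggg
The TGACG core occurred 2 times in the Egr4 window, 4 times in that of Nr4a2, 2 times in that of Egr2 and 4 times in that of Nr4a1. Over 32851 mouse windows of the same length, 17.8% held the core at least 1 time, 3.90% at least 2 times and 0.137% at least 4 times. The full element TGACGTCA, which 1.55% of all windows held, was in none of the 4. A CArG box stood only in the Egr2 window among these, beginning 72 bases before the start, against 1.47% of all windows. The window of Nr4a3, which held the TGACG core 4 times, is not printed because it overlaps 2 exons of GENCODE M21. The windows of Nr4a1 and Nr4a2 each held 1 match to the Egr site GCGNGGGCG on either strand, as did 4.70% of all windows, and none of the 5 windows held the Nr4a site AAAGGTCA. These matches describe letters in a window and were not tested as binding sites.

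In neuron-like cells of library 1 the 7 genes were spread over both families, whereas in library 2 Egr1 made up most of their UMIs. Levels are given as CPM, the UMIs of a gene per 1000000 UMIs of its class. The 3' counting reads near the ends of transcripts, so levels are compared between classes for 1 gene and not between genes. Sums and shares over several genes describe the UMIs captured, not the relative amounts of their RNA. The Egr genes summed to 134.9 CPM (127.4 to 142.8) in neuron-like cells of library 1, 1091 CPM (1070 to 1111) in microglia-like cells and 598.5 CPM (569.9 to 628.1) in endothelial-like cells of library 2. The Nr4a genes summed to 119.2 CPM (112.1 to 126.6), 33.0 CPM (29.6 to 36.7) and 173.9 CPM (158.6 to 190.2) in the same order. Of the 2256 UMIs of the 7 genes in neuron-like cells, 28.9% were Nr4a2, 20.3% Egr1, 17.6% Egr4 and 14.5% Egr3. In microglia-like cells of library 2, 91.5% of 11476 UMIs were Egr1, and in endothelial-like cells of that library 76.3% of 2119 were Egr1 and 15.1% Nr4a1.

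**Figure D1:**
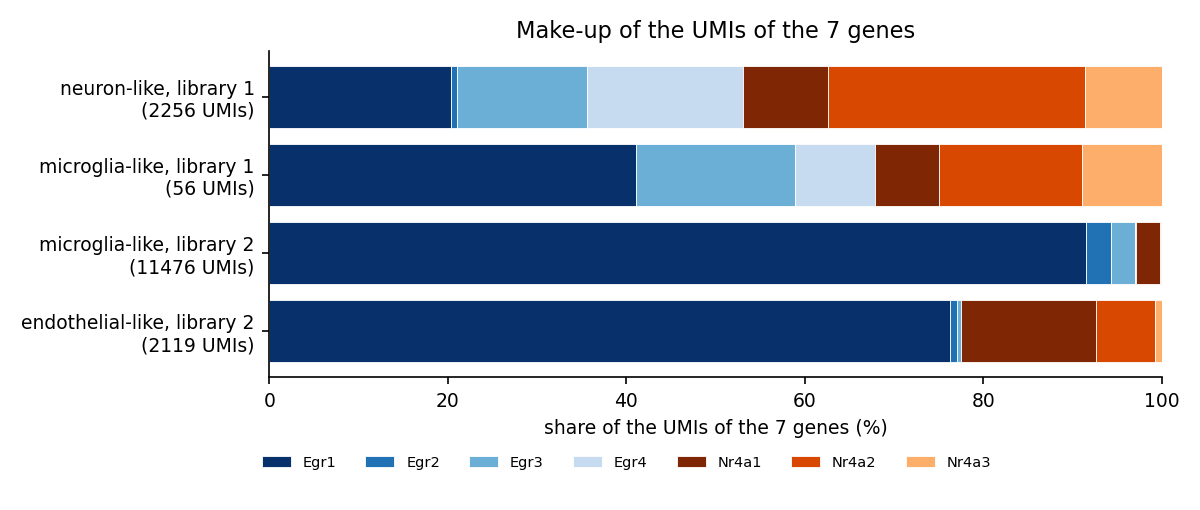
Share of each gene among the UMIs of the 7 genes (x axis, percent) in 4 classes (rows, with the number of UMIs). Nr4a2 is the widest part in neuron-like cells with 28.9%, while Egr1 takes 91.5% in microglia-like and 76.3% in endothelial-like cells of library 2.

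Egr1, the most studied member and a factor induced in many cell types, was highest in microglia-like cells of library 2. It had 1028 CPM there (10502 UMIs in 655 of 1512 cells), 589 CPM in endothelial-like cells (1617 UMIs in 63 of 172) and 51.7 CPM in neuron-like cells of library 1 (459 UMIs in 351 of 4715). Microglia-like cells of library 1 had 14.8 CPM (23 UMIs in 15 of 684 cells), and pericyte or smooth muscle-like cells of library 2 had 29.1 CPM from 10 UMIs. The order from microglia-like to endothelial-like to neuron-like cells was separated beyond the intervals, and the classes below were not separated from their neighbours. Egr2, which controls myelination in Schwann cells and is also used by macrophages and lymphocytes, likewise had its highest level among microglia-like cells in library 2, at 31.8 CPM (325 UMIs in 151 cells). It had 6.20 CPM in endothelial-like cells (17 UMIs in 5 cells) and 1.80 CPM in neuron-like cells (16 UMIs in 15 cells), and no UMI in microglia-like cells of library 1, where 3 counts would be 1.93 CPM.

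Egr3, a factor downstream of neuronal activity and of antigen signals, had similar levels in neuron-like cells of library 1 and microglia-like cells of library 2. It had 36.8 CPM in neuron-like cells (327 UMIs in 247 cells) and 30.4 CPM in microglia-like cells of library 2 (311 UMIs in 90 cells), but 2.92 CPM in endothelial-like cells (8 UMIs, 1 each in 8 cells). Egr4, the member with the narrowest known expression and mainly neuronal, followed neuron-like cells most closely. Of its UMIs 396 were in 244 neuron-like cells of library 1 (44.6 CPM), 5 in microglia-like cells of that library (3.22 CPM), 1 in microglia-like cells of library 2 (0.0979 CPM) and 0 in endothelial-like cells, where 3 counts would be 1.09 CPM.

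Nr4a1, or Nur77, which acts in immune and vascular cells as well as in neurons, was highest in endothelial-like cells with 117 CPM (321 UMIs in 60 cells). That holds among classes with at least 50 cells, since the 10 monocyte or neutrophil-like cells of library 2 had 116 CPM (61.8 to 198) from 13 UMIs. Microglia-like cells of library 2 had 30.5 CPM (312 UMIs in 115 cells) and neuron-like cells 24.1 CPM (214 UMIs in 185 cells), against 2.58 CPM from 4 UMIs in microglia-like cells of library 1. Nr4a2, or Nurr1, known for its part in dopamine neurons and in hippocampal memory, had its highest level in neuron-like cells with 73.3 CPM (651 UMIs in 431 cells). Endothelial-like cells followed with 51.4 CPM (141 UMIs in 38 cells), while microglia-like cells had 5.80 CPM in library 1 (9 UMIs) and 1.17 CPM in library 2 (12 UMIs). Nr4a3, or Nor1, had 21.7 CPM in neuron-like cells (193 UMIs in 170 cells), 5.47 CPM in endothelial-like cells (15 UMIs in 8 cells) and 1.27 CPM in microglia-like cells of library 2 (13 UMIs, 1 each in 13 cells). Astrocyte-like cells held 0 to 4 UMIs of each gene, oligodendrocyte-like cells of library 1 held 2 UMIs of Nr4a1 and none of the others, and pericyte or smooth muscle-like cells held 10 of Egr1, 5 of Nr4a1 and none of the others.

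**Figure D2:**
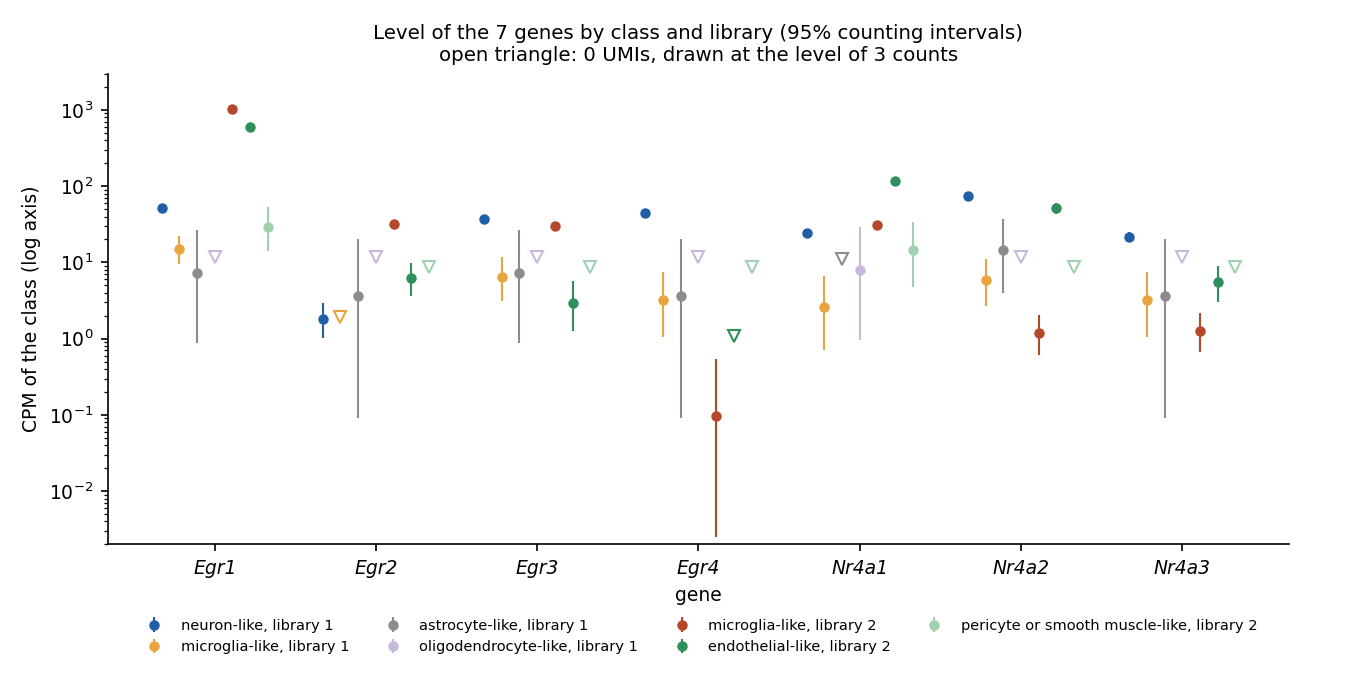
Level of each gene (x axis) as CPM of the class on a log axis, for the 7 pairs of class and library with at least 50 cells, with 95% counting intervals and open triangles where no UMI was seen. Egr1 and Egr2 are highest in microglia-like cells of library 2, Nr4a1 in endothelial-like cells, and Egr3, Egr4, Nr4a2 and Nr4a3 in neuron-like cells, although Egr3 is close in microglia-like cells of library 2.

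Set against neuron-like cells of library 1, microglia-like cells of library 2 had 2 of the 7 genes at least 4-fold higher and 3 at least 4-fold lower, where 15.9% of the 14349 genes with at least 50 UMIs over both classes were that much higher and 31.6% that much lower. Egr1 was 19.9-fold higher (18.1 to 21.9) and Egr2 17.7-fold higher (10.7 to 31.3). Nr4a2 was 62.4-fold lower (35.5 to 121), Nr4a3 17.1-fold lower (9.75 to 32.7) and Egr4, on its 1 UMI, 456-fold lower (81.3 to 18038). Egr3 and Nr4a1 lay within 4-fold, with ratios of 0.827 (0.706 to 0.969) and 1.27 (1.06 to 1.52). Each family was thus split: Egr1 and Egr2 were higher and Egr4 lower, and within Nr4a only Nr4a1 was not at least 4-fold lower. The median log2 ratio of the 7 was -0.27, and over all genes tested it was -0.60. Counts of 2 and 3 among 7 genes lie near those shares of all genes. A gene with few UMIs in one class reaches 50 only through the class where it is high, so in this and the next comparisons the counts describe the genes that passed and support nothing about the group.

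Endothelial-like cells of library 2 shared the higher Egr1 but not the low Nr4a2. Against the same neuron-like cells, 2 of the 6 members that reached 50 UMIs were at least 4-fold higher and 2 at least 4-fold lower, where 15.3% and 33.4% of 13492 genes were. Egr1 was 11.4-fold higher (10.3 to 12.7) and Nr4a1 4.85-fold higher (4.07 to 5.80). Egr3 was 12.6-fold lower (6.34 to 29.5). Egr4, with no UMI, was 40.8-fold lower with its 0 set to 3 counts, with a lower limit of 33.0-fold. Nr4a2 had a ratio of 0.701 (0.580 to 0.842), and Nr4a3 was 3.98-fold lower (2.35 to 7.24), at the edge of 4-fold. Egr2, with 17 UMIs against 16, was under the limit of 50 and had a ratio of 3.44 (1.63 to 7.27). This comparison and that of microglia-like cells share the neuron-like cells, so their values are set side by side and no overlap is drawn from them.

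**Figure D3:**
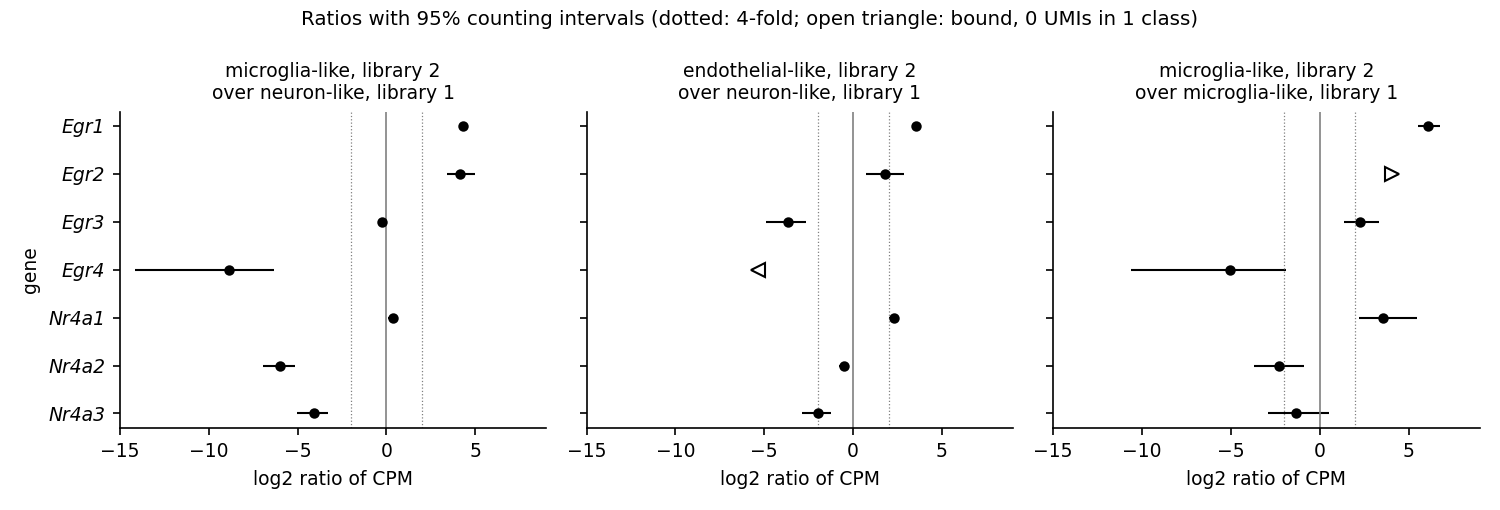
Log2 ratio of CPM (x axis) for each gene (y axis) in 3 comparisons, with 95% counting intervals, dotted lines at 4-fold and open triangles for bounds where 1 class had no UMI. Microglia-like cells of library 2 are higher in Egr1 and Egr2 and lower in Egr4, Nr4a2 and Nr4a3 than neuron-like cells, while Egr1, Egr2, Egr3 and Nr4a1 lie above the microglia-like cells of library 1.

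Within library 2 endothelial-like and microglia-like cells came from the same pool and preparation, and still differed in Egr2, Egr3 and Nr4a2. Against microglia-like cells, endothelial-like cells had Nr4a2 43.7-fold higher (24.3 to 86.7), while Egr2 was 5.14-fold lower (3.16 to 8.92) and Egr3 10.4-fold lower (5.23 to 24.4). That is 1 of 5 members with at least 50 UMIs higher and 2 lower, where 10.9% of 11195 genes were at least 4-fold higher and 13% lower. Nr4a1 was 3.83-fold higher (3.27 to 4.49) and Egr1 had a ratio of 0.573 (0.544 to 0.604), both within 4-fold.

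Within library 1 the microglia-like cells had less of the 7 genes than the neuron-like cells. The 6 members that reached 50 UMIs did so only through the neuron-like cells, where they are high, and Egr2, with 0 against 16 UMIs, did not reach it. Of these 6, 5 were at least 4-fold lower, where 26.8% of 13099 genes were that much lower and 12.6% higher, and nothing is read from that count. Egr4 was 13.8-fold lower (5.88 to 42.8) and Nr4a2 12.6-fold lower (6.61 to 27.8), and Egr1 was 3.49-fold lower (2.29 to 5.56), within 4-fold. These values depended on the removal of doublets: with doublets kept, the log2 ratio of Egr1 was -0.34 in place of -1.80, and that of Egr3 was -1.74 in place of -2.51, no longer past 4-fold.

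Microglia-like cells of the 2 libraries stood far apart in 4 of the 7 genes. Egr1 was 69.3-fold higher in library 2 (46.2 to 109), Nr4a1 11.8-fold (4.58 to 43.7) and Egr3 4.72-fold (2.53 to 9.95). Egr2, absent from the library 1 cells, was 16.45-fold higher with its 0 set to 3 counts, with a lower limit of 13.3-fold. Over all 10556 genes tested, 1.59% were at least 4-fold higher and 2.43% lower. These 4 members reached 50 UMIs only through the library 2 cells, so that all 4 passed 4-fold upward was set by the limit and is not counted as support. Egr4, Nr4a2 and Nr4a3 had too few UMIs to be counted: 1 against 5, 12 against 9 and 13 against 5, out of 10213667 UMIs in the library 2 cells and 1550910 in the library 1 cells. Nr4a2 was 4.94-fold lower in library 2 (1.84 to 12.8), but with at least 2000 UMIs per cell its log2 ratio was -1.15 in place of -2.30, with an interval that included 0 (-3.04 to 1.32). Its 9 UMIs in library 1 also lay within the level of neuronal RNA found in these cells, given below. Nr4a3 was not separated (2.53-fold lower, 0.707 to 7.57). Where cells that Scrublet marked as doublets were kept, 797 microglia-like cells of library 1 gave a log2 ratio of 4.68 for Egr1 in place of 6.12 and of 2.48 for Nr4a1 in place of 3.57, and Egr3 was inside 4-fold, with a log2 ratio of 1.50 in place of 2.24. With doublets kept, the Egr sum of these cells was 57.5 CPM in place of 24.5 CPM.

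RNA set free by broken cells is captured with every cell, and marker genes of other classes show how much. The neuron marker list reached 6.04% of its neuron-like level in microglia-like cells of library 1, but 86.1% of its UMIs were Meg3 and Snhg11, a pair of long non-coding RNAs. Without this pair, a split made after seeing the data, the other markers reached 14.2% (13.5 to 14.9), and single markers ran from 1.69% for Kcnip4 to 30.8% for Rtn1, with a median of 8.14%. There Egr4 reached 7.23% (2.33 to 17.0) and Nr4a2 7.91% (3.60 to 15.1) of their neuron-like levels. Egr1 stood at 28.7% (18.0 to 43.6) and Egr3 at 17.5% (8.32 to 32.6), with 6 of the 10 Egr3 UMIs in 1 cell. Of the 23 Egr1 UMIs, the highest cells held 6 and 3, whereas Egr4 and the Nr4a genes had at most 1 UMI in a cell. Nr4a1 stood at 10.7% (2.89 to 27.8) and Nr4a3 at 14.8% (4.76 to 35.2). All 6 lay within the range of the single neuron markers, but Egr1 did so only through Rtn1, since the next marker, Atp1b1, stood at 21.6%. Rtn1 also had 931 UMIs in microglia-like cells of library 2 against 7 in endothelial-like cells there, and Syn1 had 71 against 3. Whether Rtn1 or Syn1 measures free RNA alone was not tested. Whether the UMIs of these genes in microglia-like cells of library 1 are expression or free RNA was not tested, and they are not read as expression. In library 2 the microglia marker list reached 0.525% of its microglia-like level in endothelial-like cells and 0.829% in pericyte or smooth muscle-like cells. Egr1 reached 57.3% (54.4 to 60.4) in the former and 2.83% (1.36 to 5.21) in the latter. Neuron markers were low in library 2, with 171 CPM in endothelial-like and 285 CPM in microglia-like cells against 59264 CPM in neuron-like cells of library 1. Of the 9 monocyte or neutrophil markers, Lcn2 held 1908 of 1938 UMIs in endothelial-like cells, and Ccr2, Plac8 and Chil3 were at 0.

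In library 2 Egr1 was found in similar raw shares of microglia-like and endothelial-like cells, but in a smaller share of endothelial-like cells at equal depth. An Egr1 UMI was in 43.3% of the former (40.8 to 45.9) and 36.6% of the latter (29.4 to 44.3), and at least 10 were in 24.3% and 16.9%. Very high counts were more frequent in endothelial-like cells, where 5.23% held at least 50 against 1.52%. Microglia-like cells had a median of 11 UMIs in those cells and a highest value of 121. The 10 cells with the most, out of 1512, held 7.54% of the UMIs of the gene. In pericyte or smooth muscle-like cells of the same library 7.79% held 1 or more, at a median depth of 4423 UMIs against 6500 in microglia-like cells. Every cell had at least 1000 UMIs, and each was thinned to 1000. In library 2 the share with Egr1 was then 31.5% of microglia-like (29.1 to 33.9) and 17.4% of endothelial-like cells (12.1 to 24.0). It was 0 of 77 pericyte or smooth muscle-like cells, which speaks of detection at that depth only. In library 1 it was 4.14% of neuron-like and 1.32% of microglia-like cells. Of the 1617 Egr1 UMIs in endothelial-like cells, the 3 highest cells held 227, 215 and 159. Neuron-like cells carried all 7 genes at low counts, with a median of 1 UMI in cells that had any and highest values of 9 for Egr1, 7 for Nr4a2 and 6 for Egr4.

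**Figure D4:**
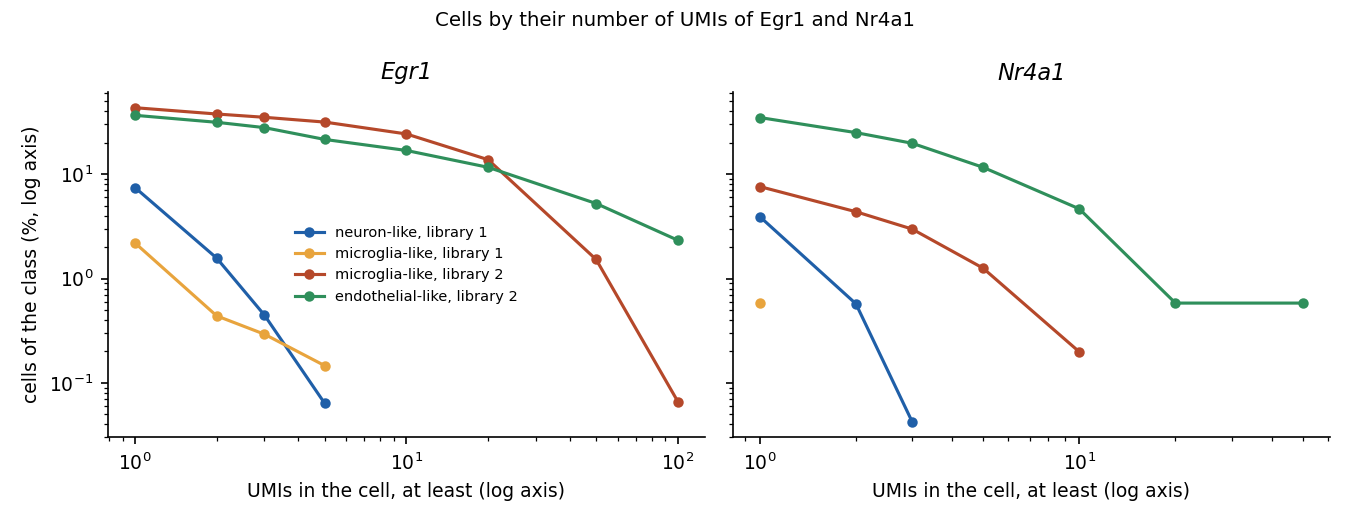
Percentage of cells of each class (y axis, log) that hold at least a given number of UMIs (x axis, log) of Egr1 and of Nr4a1. Of the microglia-like cells of library 2, 43.3% hold Egr1 and 31.5% hold at least 5 UMIs of it, while the curves of library 1 end below 10 UMIs.

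The 10 endothelial-like cells with the most Egr1, out of 172, held 68.2% of its UMIs and 24.8% of all UMIs of their class, with a median depth of 69198 UMIs against 7377 in the other 162 cells. Their microglia markers stood at 440 CPM (391 to 493) against 304 CPM (280 to 329) in the others, and their pericyte markers at 459 CPM (409 to 513) against 1298 CPM (1249 to 1348). Whether these cells are doublets was not tested. Without them Egr1 was at 250 CPM (228 to 272) in endothelial-like cells, 4.83-fold above neuron-like cells (4.25 to 5.49). Without them Nr4a1 was 3.54-fold higher (2.88 to 4.34), no longer past 4-fold, and Nr4a3 was 4.98-fold lower (2.57 to 11.1), now past it. Egr2, then on 6 UMIs, had a ratio of 1.61 with an interval that included 1 (0.517 to 4.34). The ratio of Nr4a2 fell to 0.476 (0.368 to 0.608), and Egr3 and Egr4 stayed more than 4-fold lower. Leaving out the 10 microglia-like cells with the most Egr1 left that gene at 963 CPM and 18.6-fold above neuron-like cells. Cells with an Egr1 UMI were also deeper than those without: 13037 against 5822 UMIs at the median in endothelial-like, 7457 against 5992 in microglia-like cells of library 2 and 2073 against 1641 in neuron-like cells.

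Several members were found together in the same neuron-like cells more often than in cells that lacked the other member. Of all pairs of the 7 genes, 9 were looked at. For each, the share of cells with one gene was set beside the presence of the other at equal depth. In neuron-like cells the intervals were separate for 7 pairs and overlapped for 2. No pairs of other genes were set beside these, so the counts describe the 9 pairs only. Neuron-like cells also pool subclasses with unlike levels of the 7 genes, given below, and whether this shapes the shares was not tested. In neuron-like cells thinned to 1000 UMIs, 16.8% of cells with Egr4 also held Nr4a2 (11.2 to 23.8), against 4.71% of cells without Egr4 (4.11 to 5.36). Egr1 was in 18.1% of cells with Egr4 (12.3 to 25.3) and in 3.68% of those without (3.15 to 4.27). Nr4a2 was in 22.4% of cells with Nr4a1 (14.6 to 32.0) and in 4.72% of those without (4.13 to 5.37). The pairs that overlapped were Nr4a3, in 3.75% of cells with Nr4a2 (1.73 to 6.999) against 1.56% without (1.22 to 1.97), and Egr2, in 0 of 195 cells with Egr1 against 8 of 4520 without. In microglia-like cells of library 2 the intervals were separate for 3 of 9 pairs, and the other 6 involved Egr4, Nr4a2 or Nr4a3, each in 1 thinned cell. There 5.46% of cells with Egr1 held Nr4a1 (3.60 to 7.90) against 0.965% of cells without (0.464 to 1.77). Egr3 was in 5.25% (3.43 to 7.66) against 0.676% (0.272 to 1.39), and Egr2 in 6.51% (4.47 to 9.12) against 0.869% (0.398 to 1.64). In endothelial-like cells Nr4a1 was in 7 of 30 cells with Egr1 and in 5 of 142 without, the only 1 of 6 pairs with separate intervals. At full depth 204 neuron-like cells held 2 of the 7 genes, 83 held 3, 27 held 4, 12 held 5 and 3 held 6. Cells of 1 library are not replicates, so these shares describe the cells of that library.

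Among neuron-like cells of library 1, the sum of the 7 genes was highest in CA1 pyramidal neuron-like cells. It was low in dentate granule neuron-like and GABAergic interneuron-like cells. The 7 genes summed to 392 CPM (353 to 434) in 437 CA1 pyramidal neuron-like cells, 145 CPM (124 to 168) in 444 CA3 pyramidal neuron-like cells, 65.0 CPM (51.2 to 81.4) in 752 dentate granule neuron-like cells and 48.1 CPM (24.0 to 86.0) in 118 GABAergic interneuron-like cells. The 2964 neuron-like cells that met no subclass rule had 306 CPM. Against dentate granule neuron-like cells, CA1 pyramidal neuron-like cells had Nr4a1 13.3-fold higher (4.84 to 51.1), Egr4 11.8-fold (5.68 to 28.3), Nr4a2 11.5-fold (6.16 to 23.8) and Egr1 5.69-fold (3.34 to 10.3), but Egr3 only 1.68-fold (1.01 to 2.85). Thinning to 1000 UMIs kept that order, with any of the 7 genes in 22.9% of CA1 pyramidal neuron-like, 9.68% of CA3 pyramidal neuron-like, 5.98% of dentate granule neuron-like and 5.08% of GABAergic interneuron-like cells. Nr4a3 differed from the other Nr4a genes among the pyramidal cells. It had 42.1 CPM in CA3 pyramidal neuron-like and 28.6 CPM in CA1 pyramidal neuron-like cells, a ratio whose interval included 1 (1.47-fold, 0.905 to 2.43), while Nr4a1 was 7.05-fold (3.28 to 17.4) and Nr4a2 4.06-fold (2.71 to 6.20) higher in CA1 pyramidal neuron-like cells.

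**Figure D5:**
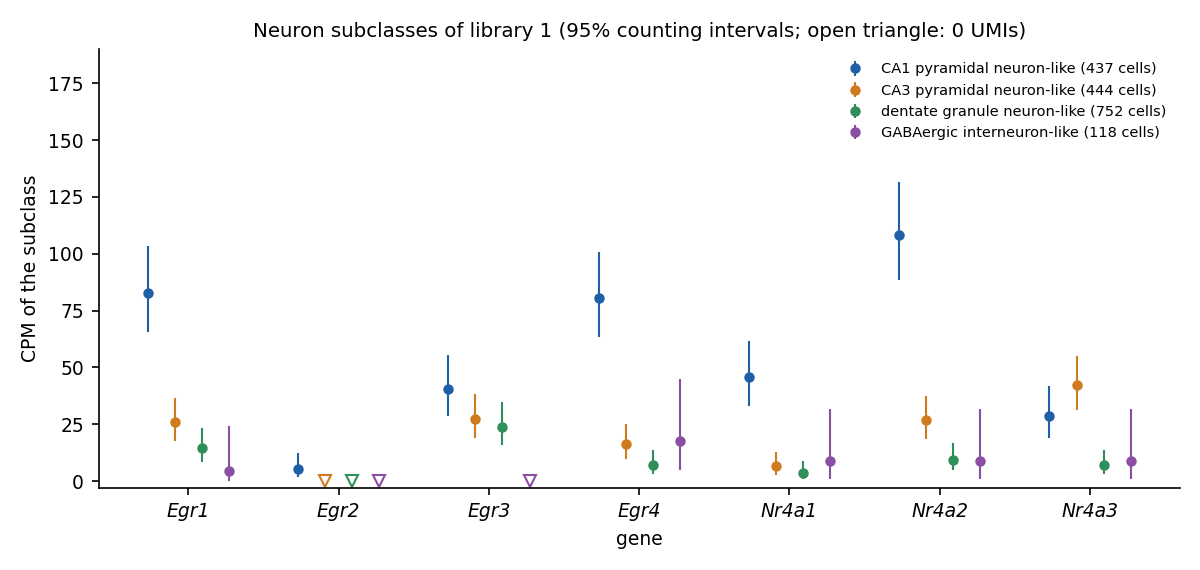
Level of each gene (x axis) as CPM (y axis) in 4 subclasses of neuron-like cells of library 1, with 95% counting intervals and open triangles where no UMI was seen. CA1 pyramidal neuron-like cells have the highest level of Egr1, Egr4, Nr4a1 and Nr4a2, separated from every other subclass by the intervals of the ratios. The highest points of Egr2 (5 UMIs) and Egr3 in CA1 and of Nr4a3 in CA3 pyramidal neuron-like cells are not separated from every other subclass.

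The 31 neuron-like cells of library 2 held 14 UMIs of the 7 genes: 4 each of Egr1 and Nr4a1, 3 of Egr3, 2 of Nr4a2, 1 of Nr4a3 and none of Egr2 and Egr4. Their Egr sum was 83.0 CPM (33.4 to 171) and their Nr4a sum the same, and both intervals held the values of the neuron-like cells of library 1. For Egr4, 3 counts in these cells would be 35.6 CPM, so the library 1 level of 44.6 CPM was near the limit of what they could show.

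Most of the other immediate early genes were, like Egr1, higher in the library 2 classes than in neuron-like cells of library 1. Most of the genes known for neuronal activity were, like Egr4, lower there. Of 16 other immediate early genes, 15 were at least 4-fold higher in microglia-like cells of library 2 than in neuron-like cells of library 1 and none lower, with a median log2 ratio of 4.99 against -0.60 over all genes, of which 15.9% were that much higher. Fos had 1569 CPM against 19.8 (79.2-fold) and Zfp36, an mRNA decay factor, 1850 CPM against 0.676. Fos and Egr1 both had low levels in microglia-like cells of library 1, at 2.58 and 14.8 CPM. In endothelial-like cells 14 of the 16 were at least 4-fold higher than in neuron-like cells and none lower. The flow-responsive factors Klf2 and Klf4 stood at 3150 CPM and 936 CPM there. Atf3, Zfp36, Klf4 and Klf2, with 3 to 28 UMIs in neuron-like cells, passed the UMI limit only through library 2 in both comparisons. Their part of the 15 and of the 14 is not counted as support. Between the microglia-like cells of the libraries 13 of 16 were at least 4-fold higher in library 2 and none lower. Over all genes, 1.59% were higher and 2.43% lower. Fos, Fosb, Dusp1, Klf4, Ier2 and Atf3, with 1 to 30 UMIs in the library 1 cells, passed the UMI limit only through library 2. Their part of the 13 is therefore not counted as support. Jun, Junb, Jund, Ier5, Btg2, Klf2 and Zfp36, also higher in library 2, had 58 to 482 UMIs in the library 1 cells alone. The gene lists were chosen with earlier results of these data known, so such counts describe the lists only.

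Of 10 genes of neuronal activity, none was at least 4-fold higher and 7 were lower in microglia-like cells of library 2 than in neuron-like cells, with a median log2 ratio of -5.75, where 31.6% of all genes were that much lower. Arc, a synaptic scaffold, had 87.5 CPM in neuron-like cells and 1 UMI in the microglia-like cells, and Npas4, a factor induced by calcium entry, had 47.4 CPM and 1 UMI. In endothelial-like cells 6 of the 10 were lower, against 33.4% of all genes, and 1, the prostaglandin synthase Ptgs2, was higher, at 484 CPM against 7.997. Plk2, a kinase of active synapses, was within 4-fold of neuron-like cells there with 120 CPM, as was Nr4a2. In microglia-like cells Arc, Npas4, Bdnf, Nptx2, Plk2 and Inhba had 0 to 13 UMIs and passed the UMI limit only through the neuron-like cells. So did all 6 genes lower in endothelial-like cells, with 0 to 34 UMIs there. These parts of the counts were largely set by the limit and are not counted as support.

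Of the 8 cofactors and partners, 7 reached 50 UMIs, and only the glucocorticoid receptor Nr3c1 was at least 4-fold higher in microglia-like cells of library 2 than in neuron-like cells, at 179 CPM against 43.8. Nab1, which represses Egr targets, was 4.69-fold higher in endothelial-like than in microglia-like cells of library 2. Of 21 upstream regulators, 3 stood at least 4-fold above neuron-like cells in microglia-like cells of library 2 (the SRF partner Elk3, Mef2a and the kinase Rps6ka1) and 4 below (Elk1, Mkl2, the CREB coactivator Crtc1 and Rps6ka2). In endothelial-like cells 5 were higher and 2 lower. Over all genes 15.9% were higher and 31.6% lower in the first comparison and 15.3% and 33.4% in the second, so these counts lie near or below the background. Between the microglia-like cells of the libraries none of the 19 upstream regulators and 7 cofactors with at least 50 UMIs passed 4-fold in either direction, where 1.59% of all genes were higher and 2.43% lower, so a count of 0 lies near the background. Among genes with at least 100 UMIs over the 7 pairs of class and library, those with the pattern most like Egr1 were Nfkbiz (Pearson r of 0.972 on log2 of CPM plus 10), Fos (0.967) and Tmlhe (0.963). Those most like Egr4 were Gm45165, Rab27b and Galntl6, those most like Nr4a2 were Stx3, Unc13b and Pknox2, and those most like Egr2 were Gm12703, Junos and Gdf15. These are descriptions over 7 points from 2 libraries, picked as the best of 13652 genes, and the points share library and depth.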

How the data were processed

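Hippocampal cells were read with 10x Genomics 3' version 3 chemistry in 2 libraries. The deposited files hold raw counts of UMIs per gene and barcode, made by the authors with Cell Ranger 3.0.1 and GRCm38.p5, per the submitters' processing notes; how barcodes were chosen (each has at least 500 UMIs) is not given in the sources read. From these counts, cells with at least 1000 UMIs, 500 genes and at most 10% mitochondrial UMIs were kept. Scrublet removed 1220 doublets at its automatic threshold in library 1, and 89 in library 2, where that threshold marked 0% and the expected share of highest scores was taken instead (0.8% per 1000 barcodes). A cell joined the class with the highest mean log count over its markers, given at least 4 distinct markers and a lead of 2 times over the next class (subclasses of neurons 3 markers and 2 times); these thresholds were set after the data were seen. No marker is a member.

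UMIs were summed per class and library. CPM carry exact Poisson intervals, shares exact Clopper-Pearson intervals and ratios exact conditional intervals, all at 95%; PCR duplicates are merged by UMI, and the intervals cover counting error only. A class at 0 was set to 3 counts for a bound, while its interval was taken from the count of 0. Genes with at least 50 UMIs over 2 classes were called at 4-fold; no p-value was computed, since no group had replicates. The ratios and the 4-fold call were tested on simulated Poisson counts of whole classes. That test held no differences between cells, so it does not cover UMIs held by few cells. Neither library is tied to a dissociation method by its labels, so both were left without a group, and the 19 barcodes found in both were kept. Of the 55 related genes, those at least 4-fold apart between 2 classes compared could be named; likeness took, for each member, the 3 genes with the highest Pearson correlation of log2(CPM + 10). The 7 members, the marker lists and the related lists were chosen with earlier results of these data known. Promoter windows are from RefSeq (GRCm38.p6), which matched 5 of 7 members, and Egr1 and Egr3 are not shown. Tools were Python 3.11.15, numpy 2.4.6, scipy 1.17.1, pandas 2.3.3 and scanpy 1.11.5. Alternatives changed the limits on depth, mitochondrial share and doublets, the gate, the CPM base and the weighting of cells.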

Additional observations from a re-analysis of the deposited data

How the results depend on the processing

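The ratios of members called at 4-fold kept their sign under the alternatives run. The uncalled ratio of Egr2 in microglia-like against neuron-like cells of library 1 (0 against 16 UMIs, set to 3 counts) ran from -0.64 to 0.15 on the log2 scale, with the sign turned under 2 of 6 alternatives. Of the family sums and gene counts under an alternative 48 stayed close to the reported value and 20 moved. With at least 2000 UMIs per cell the neuron-like cells of library 1 had an Egr sum of 157.9 CPM and an Nr4a sum of 132.0 CPM. With each cell weighted the same, the Egr sum was 125.7 CPM in these neuron-like cells, 920 CPM in microglia-like and 332 CPM in endothelial-like cells of library 2, and the Nr4a sum was 29.0 CPM and 134.0 CPM in microglia-like and endothelial-like cells. Without mitochondrially encoded and ribosomal protein genes in the base, the Egr sum was 1270 CPM in microglia-like and 742 CPM in endothelial-like cells, and the Nr4a sum 38.4 CPM and 215 CPM. With a mitochondrial limit of 20% the Egr sum was 1062 CPM in microglia-like and 561 CPM in endothelial-like cells, and the latter was 649 CPM with the stricter gate and 534 CPM with classes from clusters. Leaving out the 10 cells with the most Egr1, a choice made after seeing the data, gave an Egr sum of 1024 CPM in microglia-like and 254 CPM in endothelial-like cells, and an Nr4a sum of 125 CPM in the latter. With a ratio of at least 2, the genes above neuron-like cells numbered 3718 in place of 2275 for microglia-like and 3387 in place of 2071 for endothelial-like cells, as a lower limit must give. Member ratios and microglia-like cells of library 1 were put through the alternatives after seeing the data. With doublets kept, Egr3 in microglia-like cells of library 1 was no longer 4-fold below neuron-like cells, at a log2 ratio of -1.74 in place of -2.51. At 2000 UMIs Egr1 passed 4-fold there, at -2.24 in place of -1.80. Nr4a3 in endothelial-like against neuron-like cells passed 4-fold under 4 alternatives, at -2.03 to -2.43 in place of -1.99, and Nr4a1 in endothelial-like against microglia-like cells passed it with the stricter gate, at 2.04 in place of 1.94. The causes were not tested. No paired analysis was possible because each library is 1 pool with no replicate, and for the same reason no replicate could be left out. Depth limits Egr2, Egr4 and the Nr4a genes in microglia-like cells of library 1, with 0 to 9 UMIs each.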
